A study of Mus musculus with 9 samples.

Results

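Long noncoding RNAs (lncRNAs) are transcripts that are not translated into protein, and 211 of them that lie on autosomes were measurable in these mouse hepatocytes, of 54532 genes in the table. A gene was taken where its biotype was lincRNA, antisense or processed_transcript, its chromosome was not X, Y or MT, its length was at least 200 bases, and its level was at least 2 FPKM (fragments counted for a gene, divided by its length and by a library scale) in at least 3 of the 9 libraries. The genes were thus chosen by their measured FPKM levels, and those levels are given as description. Of 8389 autosomal genes of these biotypes and length, the 211 were 98 lincRNAs (lying between genes), 65 antisense RNAs (opposite another gene) and 48 processed transcripts (no open reading frame assigned). The remaining genes of these biotypes did not reach 2 FPKM in 3 libraries.

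Each library came from primary hepatocytes, liver parenchymal cells freshly isolated by a 2-step perfusion, of C57BL/6 mice. All mice carried loxP-flanked alleles of the gene for cyclooxygenase-2 (COX-2 fl/fl), the enzyme that starts inducible prostaglandin synthesis. The CKO group also carried Alb-Cre, a recombinase driven by the albumin promoter and so active in hepatocytes, and the group called WT consisted of COX-2 fl/fl littermates without Alb-Cre. Cells were held in 1% serum for 2 hours and then given the solvent DMSO or 6 μmol/L tunicamycin (Tu) for 24 hours. Tunicamycin blocks N-glycosylation, which loads the endoplasmic reticulum (ER) with unfolded protein and starts the unfolded protein response. There were 3 libraries each of WT DMSO, WT Tu and CKO Tu. CKO cells with DMSO were not analysed here, so the genotypes are compared only under tunicamycin. Age was not given beyond age-matching, and the labels do not say that replicates were separate animals. The p-values therefore measure the spread between these libraries, which may be technical.

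As background, lncRNAs act in several ways. Some carry small RNAs within them, either small nucleolar RNAs (snoRNAs), which guide the modification of ribosomal RNA, or microRNAs (miRNAs), which repress messenger RNAs through a short seed. Others build nuclear bodies or bind regulatory proteins. Many start from the promoter of a coding gene and run the other way, lie opposite one, or follow its end.

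The 9 libraries held 14897358 to 16001484 assigned fragments, recovered from the deposited FPKM, and the 211 lncRNAs took 0.454% to 0.542% of them. The labels describe male mice, yet Xist had 20659 to 33657 fragments in the 6 WT libraries and 0, 3 and 0 in CKO, while 4 Y-linked genes had 0 in WT and 3486 to 3633 in CKO. Sex and genotype thus cannot be told apart in any comparison with CKO. The summed FPKM of 7 hepatocyte markers was 15900 to 17700 in WT DMSO, 15900 to 17300 in tunicamycin-treated WT and 14000 to 14900 in CKO Tu, although 6 of the 7 were called higher and 1 lower in CKO Tu than in WT Tu. Endothelial markers (8 genes) summed to 10.2 to 11.2 FPKM in WT DMSO, 3.85 to 5.25 in tunicamycin-treated WT and 2.96 to 3.34 in CKO Tu, and the 4 that could be tested all fell with tunicamycin. Cholangiocyte markers (5 genes) summed to 22.7 to 25.9, 22.8 to 24.3 and 34.3 to 38.3, stellate cell markers (7 genes) to 5.4 to 6.49, 5.02 to 5.83 and 6.52 to 7.25, and Kupffer cell markers (8 genes, Vsig4 at 0 in all libraries) to 75.2 to 92.8, 96.9 to 115 and 92.7 to 107. Spp1 made up most of the cholangiocyte sum, at 15.3, 16.7 and 27.2 FPKM on average. Spp1 and Sox9 were called higher in CKO Tu than in WT Tu. Epcam (0.642, 0.722 and 0.359 FPKM), Krt19 (0.672, 0.474 and 0.487) and Krt7 (0.0328, 0.0128 and 0.00914) were too low to test. Cd68 made up nearly all of the Kupffer sum, at 83.1, 107 and 100 FPKM on average, and was called higher with tunicamycin. Lyz2 was called lower, from 1.48 to 0.149 FPKM. Mpeg1 (0.597 to 0.23 FPKM), Csf1r (0.297 to 0.112) and Adgre1 (0.155 to 0.0462) were also lower with tunicamycin but too low to test. Ecm1 made up most of the stellate sum, at 5.66, 4.96 and 4.89 FPKM on average, and was not called in any comparison. Reln (0.131, 0.121 and 1.9 FPKM) was the stellate marker called higher in CKO Tu than in WT Tu. Dcn (0.168 to 0.081 FPKM), Acta2, Pdgfrb, Des and Lrat were lower in CKO Tu than in WT Tu but too low to test. Lymphocyte and neutrophil markers stayed under 1 FPKM in sum. The part of these markers and of sex in the lncRNA differences was not tested. In such bulk samples, fewer cells of a type and less RNA per cell cannot be told apart.

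Most of these lncRNAs were scarce. Their median level over the 9 libraries was 3.07 FPKM, against 6.55 for all 11858 genes tested. 3 reached a mean of 100 FPKM, 36 reached 10, and 150 stayed under 5. The median length was 1125 bases (217 to 20771), and the median gene had 68 fragments per library. The 10 highest held 45.9% of the summed FPKM of the 211. A total of 172 carried only RIKEN, predicted-gene or clone symbols, and 7, among them Cct6a and Ifi30, carried the symbol of a protein although the table gave them a noncoding biotype.

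The most abundant was 2410006H16Rik, a host of 3 snoRNAs, at 252, 235 and 293 FPKM on average in WT DMSO, WT Tu and CKO Tu. Malat1, an RNA of nuclear speckles, followed at 179, 168 and 187 FPKM. Gm26917 showed a split by library rather than by group. It stood at 31.7 FPKM in WT DMSO replicate 1 and 36.1 in WT Tu replicate 1, and between 97.9 and 157 in the other 7 libraries. Cct6a, Epb41l4aos, Snhg6, 1110038B12Rik, 9530034E10Rik, 2310034O05Rik and Snhg1 completed the 10 most abundant. At the lower edge of the selection, the third-highest FPKM was 2.014 in Gm13822, 2.005 in 6230400D17Rik and 2.002 in 1700022N22Rik, and just below it were B230303O12Rik at 1.998, CT030636.1 at 1.995 and A330069E16Rik at 1.98.

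The level of 2 FPKM was reached in all 9 libraries by 91 of the 211, in at least 1 library of every group by 149, and in 2 groups by 54. It was reached only in CKO Tu by 7 (Gm43305, Gm17767, Gm13522, Gm48436, Gm42031, Gm35696 and 9430091E24Rik) and only in WT DMSO by 1 (Brip1os). A gene that enters through a single group has to differ between groups, so the counts that follow are also given for the 149. On the first principal component of the 211 lncRNAs, which held 55.8% of their variance, WT DMSO libraries lay at -6.31 to -5.62, WT Tu at -0.413 to 0.178 and CKO Tu at 5.79 to 6.2.

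Tunicamycin in WT cells changed 55 of the 211 lncRNAs (26.1%) at an adjusted p below 0.05. Among all genes tested, 33.6% were called, and among protein-coding genes 37.1%. Thus 38 lncRNAs rose, where 17.7% of all genes rose, and 17 fell, where 15.9% of all genes fell. A log2 difference of at least 1 was seen in 14 (13 higher, 1 lower), against 3.17% of all genes. Of the 149 present in every group, 19 rose and 12 fell, and 3 differed by at least 1. Of the 14, 10 reached 2 FPKM in 2 groups only and 1 in CKO Tu only, so the selection fixes part of these large differences. The median log2 difference was 0.06 over the 211 and 0.00 over all genes. With scaling to total fragments in place of the deposited scaling, which moved the median of all genes by -0.108, the split was 32 higher and 33 lower.

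Each of the 10 lncRNAs with the largest rises overlapped a coding gene that also rose, or started within 10 kb past its end. Gm15344 (chr10:86692119-86693095, minus strand) lies inside Hsp90b1, the gene of the ER chaperone GRP94, on the same strand. Its level was 1.79, 0.72 and 1.81 FPKM in the WT DMSO libraries, 54.1, 49.9 and 50.5 in tunicamycin-treated WT and 51.3, 51.3 and 53.8 in CKO Tu. The groups with and without tunicamycin did not overlap, and the ratio of means was 35.8 (log2 difference 4.46 ± 0.17 SE). Gm15344 reached 2 FPKM only in tunicamycin-treated libraries, which fixes part of its rise, so no test is given. Hsp90b1 itself rose by 4.54 on the same scale, and 20% of the exon bases of Gm15344 are also exon bases of another gene on its strand, so part of its fragments could belong to either.

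AC154760.1 (chr14:118982994-118983760, minus strand) starts 1279 bases past the end of Uggt2, a relative of the glucosyltransferase that senses misfolded glycoproteins in the ER. It stood at 4.85, 4.78 and 3.67 FPKM in WT DMSO, 38.9, 25.7 and 23.3 in tunicamycin-treated WT and 15.9, 13.7 and 13.1 in CKO Tu. The 3 groups were fully separate, with a rise of 2.45 ± 0.18 (adjusted p = 1.8e-05) in WT and a level lower by 0.96 ± 0.18 in CKO Tu than in WT Tu (adjusted p = 0.0032). Uggt2 moved in the same directions, with log2 differences of 1.10 and -0.81.

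Gm45151 and 4732496C06Rik start 3072 and 6281 bases past the end of Nucb2, which encodes the calcium-binding protein nucleobindin 2. Gm45151 went from 0.0881, 0.596 and 0.267 FPKM in WT DMSO to 7.99, 5.18 and 3.9 in WT Tu, a log2 difference of 2.32 ± 0.21. 4732496C06Rik went from 0.125, 0.218 and 0.127 to 3.06, 2.92 and 2.57 FPKM, a difference of 1.73 ± 0.10. Both reached 2 FPKM only with tunicamycin, so no test is given for either. No vehicle library of either reached a tunicamycin library. Nucb2 rose by 3.08 in the same comparison, and both lncRNAs stayed high in CKO Tu, at 6.46 to 7.1 and 3.46 to 4.3 FPKM.

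**Figure D1:**
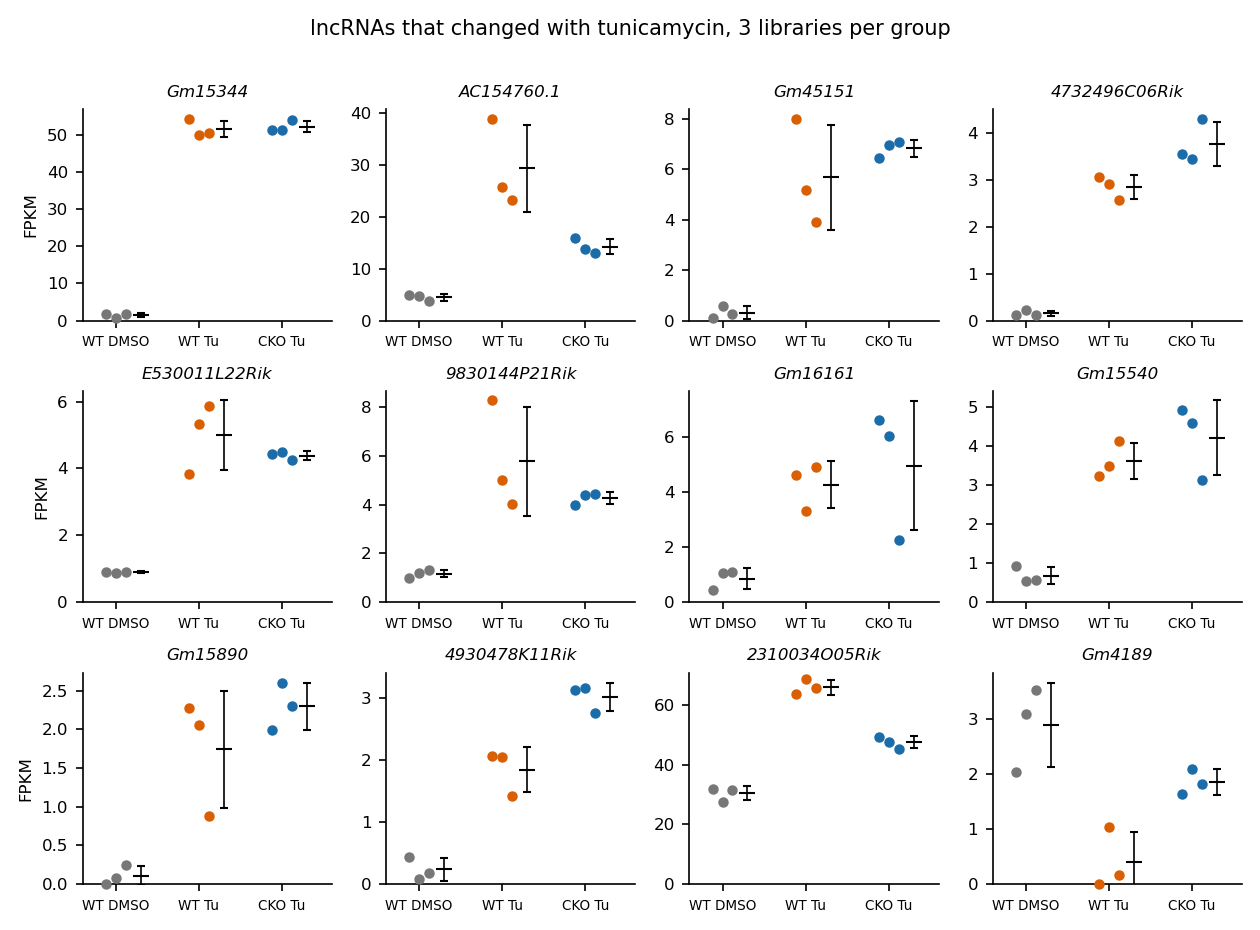
FPKM of 12 lncRNAs in each library (coloured points, 3 per group), with the mean and SD beside them. In the first 11 panels every WT Tu library lies above every WT DMSO library, and in the Gm4189 panel every WT Tu library lies below.

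A further group lies opposite coding genes that rose. The counting could not be shown to use strand, so fragments of a lncRNA and of the gene across from it cannot be told apart where their exons overlap. 9830144P21Rik rose by 1.60 ± 0.19 opposite Slc20a1 (1.74), a phosphate transporter, and 9.25% of its exon bases lie over exons of Slc20a1. E530011L22Rik rose by 1.65 ± 0.12 opposite Nktr (1.62), a cyclophilin-domain protein, with 41.3% of exon bases shared. Gm15540 rose by 1.46 ± 0.16 opposite Kyat3 (1.51), a kynurenine aminotransferase, with 39.2% shared. 4930478K11Rik rose by 1.21 ± 0.14 opposite Hhipl1 (1.80), with 25% shared. Gm16161 rose by 1.51 ± 0.31 opposite Mtmr14 (1.42), a phosphoinositide phosphatase, and shares no exon base with it. Each of these 5 was separate between WT Tu and WT DMSO. E530011L22Rik, 9830144P21Rik and Gm16161 averaged 0.892, 1.16 and 0.857 FPKM in WT DMSO. The selection thus fixes part of such rises, and no test is given for these 5. Gm48853, at 10 fragments in WT DMSO, 24 in tunicamycin-treated WT and 73 in CKO Tu, lies opposite Dpagt1, which encodes the enzyme that tunicamycin blocks. It rose by 0.83 ± 0.20 in WT and stood 1.23 ± 0.20 higher in CKO Tu than in WT Tu. Dpagt1 rose by 0.77 and then differed by 0.21, which was not called. Gm48853 averaged 0.955 FPKM in WT DMSO, so again no test is given. Without replicate 1 of both WT groups the rise of Gm48853 in WT was no longer called.

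With tunicamycin 5 lncRNAs rose together with a coding gene that starts head to head with them. For 3 of these pairs, picked by name, the promoter letters are shown with the motifs of the unfolded protein response found there. The windows of the remaining pairs are not shown, so the 3 give no share of such pairs with a motif. The 300 bases run from 250 before the coding gene's RefSeq start to 50 after it (GRCm38.p6, plus strand), and capitals mark matches to the motifs searched. The CARE and both UPRE matches read 5′ to 3′ on the minus strand, so the capitals show their reverse complements. Herpud1, an ER membrane protein of ER-associated degradation, rose by 4.62, from 30.8 to 787 FPKM. Gm15890 (chr8:94379184-94386972, minus strand) starts inside Herpud1, 534 bases past its annotated start, and runs back across this window. It had 4 fragments in all of WT DMSO, 60 in tunicamycin-treated WT and 82 in CKO Tu, at 0, 0.0788 and 0.247 FPKM, then 2.28, 2.06 and 0.88, then 1.99, 2.6 and 2.3. Its exons share no base with those of Herpud1, and it rose by 1.27 ± 0.21. Gm15890 too was selected through tunicamycin-treated libraries, so no test is given. The capitals in the Herpud1 window are the C/EBP-ATF response element (CARE, TGATGNAA, 112 bases before the start) and the ER stress element ERSE-II (ATTGG and CCACG 1 base apart, 52 bases before it).

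Herpud1 chr8:94386179-94386478: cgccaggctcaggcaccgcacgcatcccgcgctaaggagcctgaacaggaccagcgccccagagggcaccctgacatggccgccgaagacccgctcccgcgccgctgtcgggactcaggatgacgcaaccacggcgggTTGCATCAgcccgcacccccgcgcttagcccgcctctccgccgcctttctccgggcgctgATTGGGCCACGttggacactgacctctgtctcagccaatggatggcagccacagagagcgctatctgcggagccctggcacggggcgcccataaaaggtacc

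Zfp651, a zinc finger gene, rose by 2.02, and E530011L22Rik starts 90 bases before the RefSeq start of Zfp651 on the other strand. The annotated start of Zfp651 lies further upstream, at chr9:121759330, and E530011L22Rik starts 613 bases past it. The window holds an unfolded protein response element (UPRE, TGACGTGG) 201 bases before the RefSeq start. Window and UPRE thus lie inside Zfp651 as annotated. 4933421O10Rik starts 93 bases from the annotated start of Ube2j1, a ubiquitin-conjugating enzyme of ER-associated degradation. It stood at 1.17, 0.993 and 1.1 FPKM in WT DMSO, at 1.83, 1.6 and 2.15 in WT Tu and at 2.07, 3.14 and 2.44 in CKO Tu. It rose by 0.45 ± 0.12, and Ube2j1 rose by 0.86. The UPRE lies 68 bases before the Ube2j1 start, just inside the annotated 4933421O10Rik.

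Zfp651 chr9:121759783-121760082: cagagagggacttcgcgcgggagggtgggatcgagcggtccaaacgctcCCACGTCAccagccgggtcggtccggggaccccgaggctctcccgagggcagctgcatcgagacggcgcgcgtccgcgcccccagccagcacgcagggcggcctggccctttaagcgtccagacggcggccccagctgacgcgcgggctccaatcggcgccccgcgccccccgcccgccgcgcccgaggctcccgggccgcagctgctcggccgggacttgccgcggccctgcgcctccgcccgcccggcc
Ube2j1 chr4:33031130-33031429: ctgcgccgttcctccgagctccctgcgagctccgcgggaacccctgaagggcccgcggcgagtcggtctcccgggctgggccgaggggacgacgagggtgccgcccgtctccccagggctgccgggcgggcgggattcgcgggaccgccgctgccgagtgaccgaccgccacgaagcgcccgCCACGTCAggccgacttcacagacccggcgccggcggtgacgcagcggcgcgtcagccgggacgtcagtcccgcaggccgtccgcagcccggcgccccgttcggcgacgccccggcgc

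2900076A07Rik, which holds the small RNA gene Mir1839, has a UPRE in its own promoter, 43 bases before its start. It rose from 1.38, 1.07 and 1.21 FPKM to 2.36, 2.26 and 2.72, by 0.64 ± 0.12, and stayed at 2.14 to 3.14 in CKO Tu. 4933421O10Rik and 2900076A07Rik were picked out for this motif after their values were seen. Both reached 2 FPKM only with tunicamycin, so no test is given for either.

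2900076A07Rik chr7:81523300-81523599: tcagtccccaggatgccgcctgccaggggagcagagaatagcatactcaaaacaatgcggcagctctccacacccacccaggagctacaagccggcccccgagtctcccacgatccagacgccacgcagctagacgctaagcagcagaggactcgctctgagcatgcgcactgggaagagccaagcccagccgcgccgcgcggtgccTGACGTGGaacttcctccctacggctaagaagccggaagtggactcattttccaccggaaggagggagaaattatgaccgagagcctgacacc

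Motifs were searched on both strands in the RefSeq promoters of 114 of the 211 lncRNAs (113 matched by symbol, 1 by Entrez ID), of which 17 had risen with tunicamycin. For 74 of the 114 the RefSeq start lay within 100 bases of the start in the table. The UPRE was in 3 of the 114 (2.63%), namely 2900076A07Rik, 4933421O10Rik and Gm13522, against 0.676% of all 32851 promoters in that table. Of these 3, the first pair rose and Gm13522 was not called. The cyclic AMP response element (CRE, TGACGTCA) was in 7 (6.14%, against 1.79%), including Snhg15, and none of the 7 had risen. The CARE was in 1 (0.877%, against 3.97%). The ER stress element ERSE (CCAAT and CCACG 9 bases apart) and ERSE-II were in 0 of 114, against 0.119% and 0.0365% of all promoters. These are letter matches in a short window, and the motifs shown do not overlap one another.

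2310034O05Rik (chr5:100210692-100218049, plus strand) was the most abundant lncRNA that rose, and no coding gene overlaps it, starts head to head with it or ends within 10 kb before it. It stood at 31.8, 27.6 and 31.6 FPKM in WT DMSO, 63.7, 68.7 and 65.5 in tunicamycin-treated WT and 49.3, 47.6 and 45.3 in CKO Tu. All 3 groups were separate, with a rise of 1.10 ± 0.07 in WT (adjusted p = 7.0e-06) and a level lower by 0.47 ± 0.07 in CKO Tu (adjusted p = 0.00084).

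Gm4189 went against its neighbour. It had the largest fall with tunicamycin among the 211, and it starts head to head with Ddit3, which encodes the stress transcription factor CHOP. Gm4189 (chr10:127289696-127290788, minus strand) stood at 2.04, 3.1 and 3.53 FPKM in WT DMSO, at 0, 1.03 and 0.157 in WT Tu and at 1.63, 2.1 and 1.83 in CKO Tu, from 60, 8 and 37 fragments per group. The 3 WT Tu libraries lay below all others. The fall was 1.53 on the log2 scale (SE 0.26). Gm4189 was selected mainly through its WT DMSO libraries, so no test of the fall is given. CKO Tu stood 1.10 ± 0.26 above WT Tu (adjusted p = 0.0095). Ddit3 moved the other way in both comparisons, by 3.38 (46.4 ± 9.5 to 487 ± 26.6 FPKM, SD, n = 3) and by -0.56. The Ddit3 promoter window held none of the motifs searched, although Ddit3 rose. Its capitals instead mark the 15 bases that both annotated genes hold, where their 5′ ends overlap.

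Ddit3 chr10:127290543-127290842: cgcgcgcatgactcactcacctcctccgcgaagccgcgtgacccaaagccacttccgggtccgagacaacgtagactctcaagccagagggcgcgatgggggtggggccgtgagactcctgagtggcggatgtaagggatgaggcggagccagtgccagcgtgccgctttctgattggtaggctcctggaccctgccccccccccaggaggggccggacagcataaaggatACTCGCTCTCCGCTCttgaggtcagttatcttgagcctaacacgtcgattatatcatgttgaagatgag

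AL805899.1 (chr4:88909855-88938521) contains Mir31 in an exon and was the next largest fall. It stood at 9.93, 7.81 and 7.4 FPKM in WT DMSO, 5.24, 3.33 and 3.99 in tunicamycin-treated WT and 3.99, 4.21 and 2.96 in CKO Tu. Tunicamycin lowered it by 0.86 on the log2 scale (SE 0.16, adjusted p = 0.0038), with no overlap between the WT groups, and CKO Tu overlapped WT Tu (log2 difference -0.13, adjusted p = 0.57). The mature miRNAs themselves were not measured. Their sequences are given with the seed, bases 2 to 8, in capitals.

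mmu-miR-31-5p: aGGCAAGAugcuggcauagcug
mmu-miR-31-3p: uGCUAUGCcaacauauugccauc

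The other falls among the 10 largest were smaller and mostly at low levels. Rab26os fell by 0.71 (87 to 41 fragments), Gm17586 by 0.69 (122 to 54) and 3300005D01Rik by 0.59 (293 to 160), with adjusted p from 0.0021 (Rab26os) to 0.0055 (3300005D01Rik). Brip1os, selected through its WT DMSO values, had 896 fragments with DMSO and 502 with tunicamycin. Ifi30, which carries the name of a lysosomal thiol reductase but was listed with a noncoding biotype, fell by 0.59. Pik3r2, whose end lies 1513 bases before Ifi30, fell by 0.66. The calls of 3 more rested on single libraries. Gm13056 fell by 0.70, and it was no longer called without WT DMSO replicate 2 (adjusted p = 0.066) or WT Tu replicate 1 (0.051). Gm16091 fell by 0.50, and it was no longer called without WT DMSO replicate 2 or 3 or WT Tu replicate 2 or 3 (up to 0.078). Gm30262 fell by 0.64 and was lost without any of 7 libraries in turn (up to 0.14). Endothelial markers fell over the same comparison, as given above, and their part in these falls was not tested.

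CKO Tu and WT Tu differed in 69 of the 211 lncRNAs (32.7%), against 38.3% of all genes tested and 42.1% of protein-coding genes. Higher in CKO Tu were 41, where 18.7% of all genes were higher, and lower were 28, where 19.6% of all genes were lower. A log2 difference of at least 1 was seen in 15 (10 higher, 5 lower), against 3.69% of all genes. Of the 149 present in every group, 25 were higher and 15 lower, and 4 differed by at least 1. Of the 15, 5 reached 2 FPKM in CKO Tu only and 6 in 2 groups only, and the median over the 211 was 0.03. The 7 lncRNAs that reached 2 FPKM in CKO Tu alone were all among the 41, which their selection fixes in part.

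Gm43305 showed the widest gap. It lies on chr14:54292443-54297456 (minus strand) and overlaps no coding gene. Its level was 0.55, 0.411 and 0.467 FPKM in WT DMSO, 0.308, 0.507 and 0.527 in tunicamycin-treated WT and 17.6, 18.6 and 16.7 in CKO Tu, from 115, 101 and 4112 fragments. Every CKO library lay far above every WT library (ratio of means 39.5). It was selected through these CKO values, as were the next 3 and Gm48436, so no test is given for their genotype difference. In WT, tunicamycin made no called difference (-0.03, adjusted p = 0.81). Gm42031 (38 fragments in WT Tu, 366 in CKO Tu) and Gm35696 (18 and 173) had the same shape, low in both WT groups and separate from them in CKO Tu. Gm17767 rose in 2 steps. It stood at 0.158, 0.137 and 0.111 FPKM in WT DMSO, 1.71, 1.04 and 1.62 in tunicamycin-treated WT and 6.79, 6.29 and 8.41 in CKO Tu, with a rise of 1.10 ± 0.13 in WT (adjusted p = 3.7e-04).

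BC024386 stood at 2.74 to 3.6 FPKM in tunicamycin-treated WT and 7.81 to 9.23 in CKO Tu (1.18 ± 0.11, adjusted p = 1.1e-04). Gm48436 had 22 fragments in WT Tu and 87 in CKO Tu. Gm11844 and Gm8883 were higher by 1.13 ± 0.31 and 1.00 ± 0.26, and neither call held for every library left out. That of Gm11844 was lost without WT Tu replicate 2 or 3 or CKO Tu replicate 2 or 3 (adjusted p up to 0.063), and that of Gm8883 without WT Tu replicate 3 or CKO Tu replicate 2 (up to 0.06). 9530034E10Rik, among the 10 most abundant and opposite St3gal3, a sialyltransferase gene, stood at 46.3, 52.6 and 59.8 FPKM in tunicamycin-treated WT and 73.8, 70.7 and 85.6 in CKO Tu (0.53 ± 0.10, adjusted p = 0.004), and St3gal3 was higher by 0.60.

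Mir22hg, the host of miR-22, was level in the WT groups at 17.1, 16.2 and 17.1 FPKM with DMSO and 16.6, 15.3 and 14.8 with tunicamycin, and stood at 27.5, 27.6 and 28.6 in CKO Tu. The CKO libraries were separate from both WT groups (0.81 ± 0.06 against WT Tu, adjusted p = 1.8e-05). Tlcd2, which overlaps it on the same strand and shares 10.7% of its exon bases, differed by 0.20, which was not called. Of 14 miRNA hosts listed, Mir22hg and Mir17hg were among the 211. Mir17hg, the host of the miR-17 to miR-92 cluster, stood at 7.51, 8.14 and 6.86 FPKM on average in the 3 groups and was not called in either comparison. The mature forms of miR-22, again not measured, are given with their seeds in capitals.

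mmu-miR-22-3p: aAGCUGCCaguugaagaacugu
mmu-miR-22-5p: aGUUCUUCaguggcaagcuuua

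**Figure D2:**
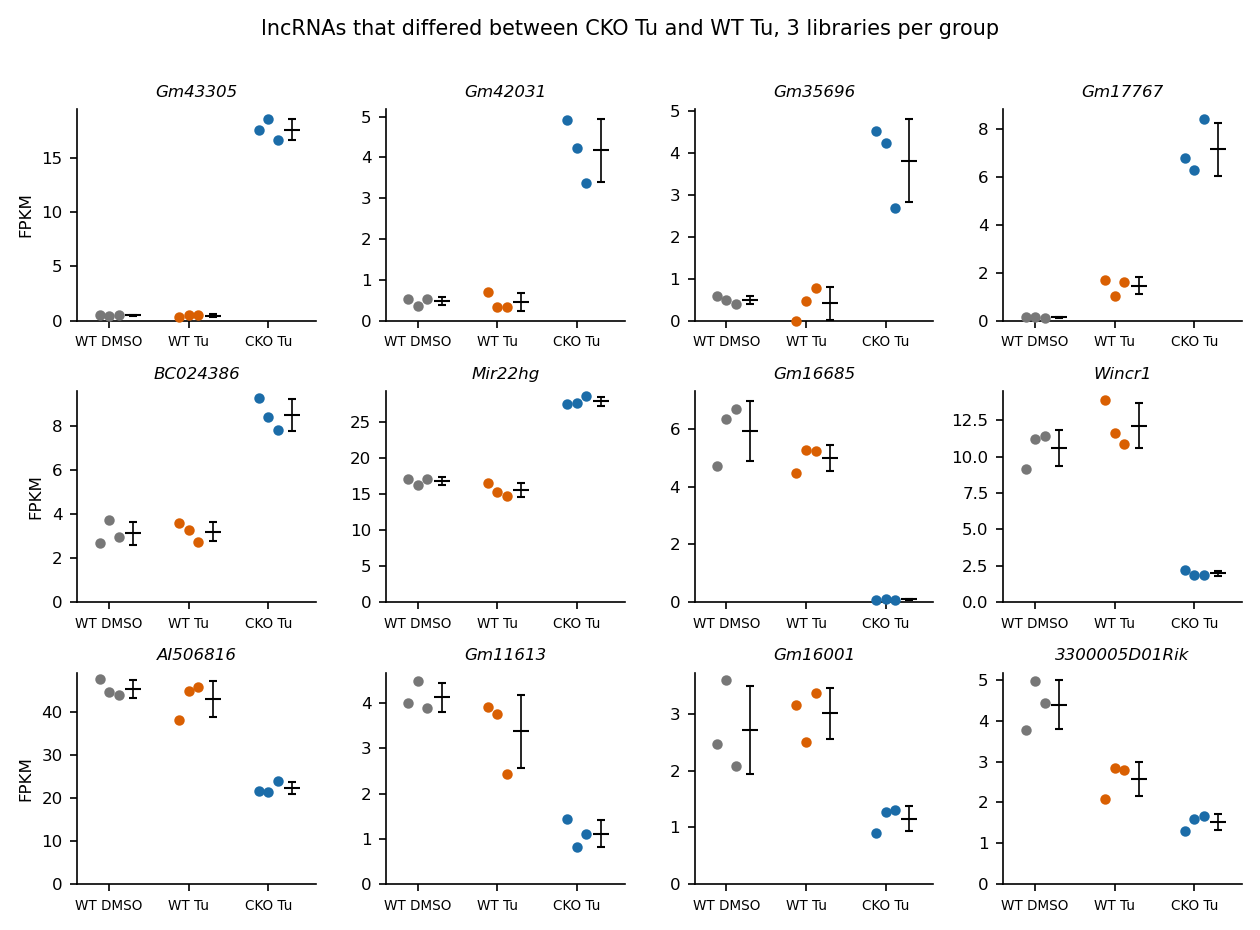
FPKM of 12 lncRNAs in each library (coloured points, 3 per group), with the mean and SD beside them. The 6 lncRNAs from Gm43305 to Mir22hg are higher in every CKO Tu library than in any WT library, and the 6 from Gm16685 to 3300005D01Rik are lower.

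Among those lower in CKO Tu, Gm16685 had the largest difference. It lies opposite Il7, which encodes the lymphocyte growth factor interleukin-7, and stood at 4.73, 6.33 and 6.69 FPKM in WT DMSO, 4.46, 5.27 and 5.23 in tunicamycin-treated WT and 0.0802, 0.122 and 0.0824 in CKO Tu. That is 356 fragments in tunicamycin-treated WT and 7 in CKO Tu, a log2 difference of -2.45 ± 0.12. Gm16685 reached 2 FPKM in WT libraries only, which fixes part of this difference, so no test is given. The same holds for 2010320O07Rik below. Il7 fell in the same direction, from 1.66 to 0.217 FPKM (log2 difference -1.10), and the 2 genes share 6.6% of the exon bases of Gm16685. Wincr1, named for its induction by WNT signals, stood at 9.15, 11.2 and 11.4 FPKM in WT DMSO, 13.9, 11.6 and 10.9 in tunicamycin-treated WT and 2.18, 1.87 and 1.9 in CKO Tu (-2.13 ± 0.11, adjusted p = 2.9e-06). It lies on chr4:89050308-89084614, beyond the Mir31 host on the same chromosome, and was not called with tunicamycin in WT (0.18, adjusted p = 0.24). 2010320O07Rik (6.56, 9.2 and 7.87 FPKM in WT Tu against 1.82, 1.47 and 1.37 in CKO Tu) lies opposite the protocadherin gene Pcdh1 and was lower by 1.79 on the log2 scale (SE 0.16), and Pcdh1 was lower by 0.33.

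Among those lower in CKO Tu, AI506816 was exceeded in level only by Snhg6 and 2310034O05Rik. It stood at 38.2, 45 and 45.9 FPKM in tunicamycin-treated WT and 21.7, 21.5 and 23.9 in CKO Tu (-0.91 ± 0.08, adjusted p = 6.5e-05), with WT DMSO at 43.9 to 47.8. Gm11613 (-1.04 ± 0.15), Gm11216 (-1.03 ± 0.23, 45 and 13 fragments) and Gm16001 (-0.90 ± 0.16) were also separate between the groups. Of the 5 lncRNAs lower by at least 1, 4 reached 2 FPKM in 2 groups only. The selection thus fixes part of such differences, and no test is given for Gm11613 and Gm11216. 3300005D01Rik and Gm13056 were lower at each step. 3300005D01Rik stood at 3.77, 4.97 and 4.45 FPKM in WT DMSO, 2.09, 2.85 and 2.8 in tunicamycin-treated WT and 1.3, 1.59 and 1.66 in CKO Tu. Gm13056 was lower by 0.72 in CKO Tu, a call lost without CKO Tu replicate 1 (adjusted p = 0.056). The summed FPKM of cholangiocyte markers was higher in CKO Tu than in WT, mostly through Spp1, as given above. Sex also differed with genotype, and the part of either was not tested for any of these lncRNAs.

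The 2 comparisons share the WT Tu libraries, and a deviation of WT Tu enters them with opposite signs. Here 7 lncRNAs rose with tunicamycin and were lower in CKO Tu, 7 fell and were higher, 7 were higher in both and 3 lower in both, while 111 were called in neither. Those higher and then lower included, besides AC154760.1 and 2310034O05Rik, Gm34719 (0.86, then -0.92), Gm16853 (0.68, then -0.69), Gm12946 (0.61, then -0.55) and Gm11714 (0.61, then -0.52). Single libraries decided several of these. Both calls of Gm34719 were lost in 4 of the leave-out runs each, without WT DMSO replicate 1 or 3 or WT Tu replicate 2 or 3 in the first comparison (adjusted p up to 0.093) and without WT Tu replicate 2 or 3 or CKO Tu replicate 1 or 2 in the second (up to 0.08). Gm11714 lost its first call without WT DMSO replicate 2 or 3 (up to 0.074) and its second without WT DMSO replicate 3, WT Tu replicate 1 or CKO Tu replicate 1 or 2 (up to 0.11). Gm12946 lost its second call without WT Tu replicate 3 or CKO Tu replicate 2 or 3 (up to 0.066).

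Those lower and then higher included, besides Gm4189, Rab26os (-0.71, then 0.95), Gm30262 (-0.64, then 0.71), Gm17586 (-0.69, then 0.63), Ifi30 (-0.59, then 0.42) and 2900097C17Rik (-0.27, then 0.40). Rab26os, which holds Snord60 and starts 310 bases from Traf7, stood at 3.91, 3.17 and 3.82 FPKM in WT DMSO, 1.56, 2.17 and 1.77 in tunicamycin-treated WT and 3.73, 4.93 and 4.75 in CKO Tu, and Traf7 was not called in either comparison. The second call of Gm30262 was lost without WT Tu replicate 1 or 3 or CKO Tu replicate 1 or 2 (adjusted p up to 0.089).

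**Figure D3:**
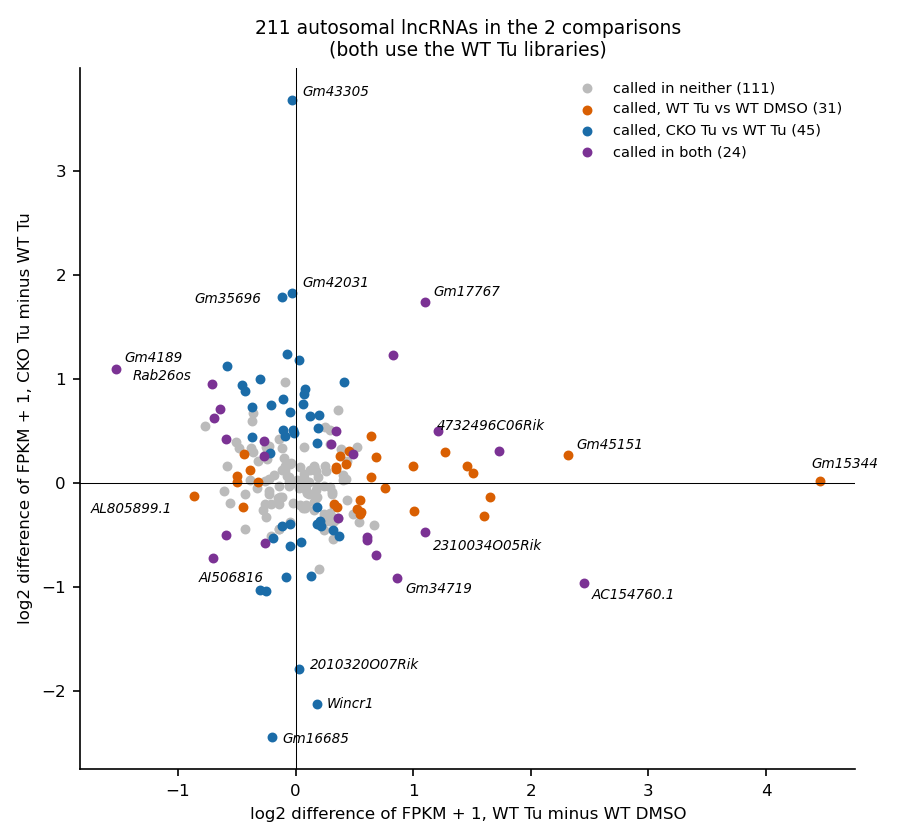
Each point is 1 of the 211 lncRNAs, with its log2 difference between WT Tu and WT DMSO on the horizontal axis and between CKO Tu and WT Tu on the vertical axis, coloured by call. 111 were called in neither comparison and 24 in both, and the largest values on 1 axis (Gm15344, Gm43305) lie near 0 on the other.

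Against WT DMSO, CKO Tu differed in 90 lncRNAs (42.7%), against 49.5% of all genes tested. Here treatment and genotype change together. Higher were 56, where 25.3% of all genes were higher, and lower were 34, where 24.2% were lower. A log2 difference of at least 1 was seen in 28 (21 higher, 7 lower), against 7.23% of all genes. Gm15344 (4.48), Gm43305 (3.66), Gm17767 (2.84) and Gm45151 (2.59) headed the higher side, and Gm16685 (-2.65) and Wincr1 (-1.96) the lower. Of the 149 present in every group, 30 were higher and 18 lower, and 4 differed by at least 1. Of the 28, 19 reached 2 FPKM in 2 groups only and 5 in CKO Tu only.

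Position beside a coding gene was examined over all pairs in which both could be tested, as a description across genes that share libraries. A pair can count under more than 1 relation, as E530011L22Rik with Zfp651 does under divergent starts and under opposite strands. Of all genes tested, 17.7% rose and 15.9% fell with tunicamycin, and 18.7% were higher and 19.6% lower in CKO Tu than in WT Tu. In 42 pairs the lncRNA started within 10 kb past the end of a coding gene on the same strand. Across these pairs Spearman's rho of the 2 log2 differences was 0.607 with tunicamycin and 0.407 between genotypes. Both members were called in 8 of the 42 pairs with tunicamycin, 6 higher together, 2 lower together and 0 in opposite directions. Between genotypes both were called in 7, of which 3 were higher together, 3 lower together and 1 opposite. In 54 pairs with divergent starts (within 1000 bases), rho was 0.322 and 0.495, and with tunicamycin 5 pairs rose together, 0 fell together and 3 went opposite ways, Gm4189 and Ddit3 among the last, and between genotypes the counts were 2, 2 and 2. In 83 pairs overlapping on opposite strands, made by 74 lncRNAs, rho was 0.347 and 0.404. With tunicamycin 10 of these pairs were higher together, 2 lower together and 3 opposite, and between genotypes the counts were 5, 4 and 2. In 9 pairs overlapping on the same strand, rho was 0.8 and 0.533, and 4 pairs rose together with tunicamycin, while between genotypes 1 was higher together and 1 lower together. Over the 211, 74 share exon bases with a gene on the other strand and 11 with a gene on their own.

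**Figure D4:**
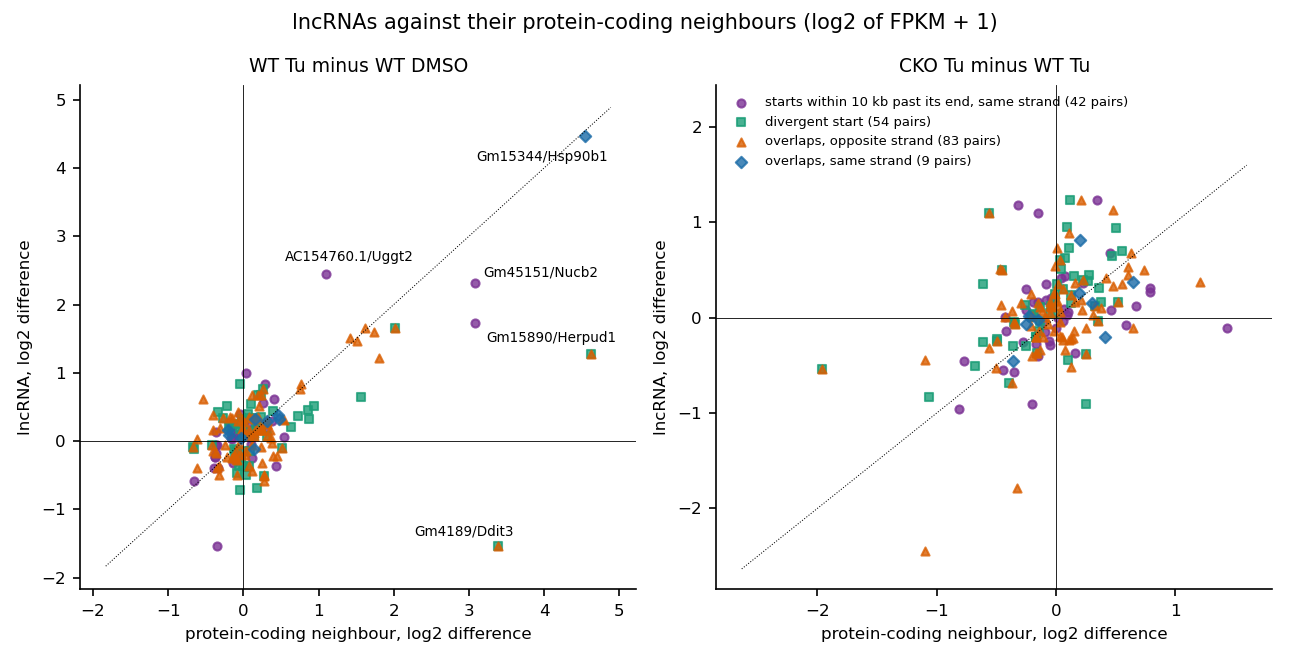
Log2 difference of each lncRNA (vertical) against that of its coding neighbour (horizontal) for WT Tu minus WT DMSO and CKO Tu minus WT Tu, marked by relation, with a dotted line of equal change. Gm15344 with Hsp90b1 lies near that line, Gm15890 rises less than Herpud1, and Gm4189 falls while Ddit3 rises.

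Hosts of snoRNAs are spliced RNAs whose introns release the small RNAs, and 15 of the 23 in the list were among the 211. Of these 15, 2 rose and 0 fell with tunicamycin, with a median difference of -0.01. In CKO Tu against WT Tu 3 were higher and 2 lower, with a median of 0.00. Their differences ran from -0.28 to 0.55 and from -0.42 to 0.48. By position, 21 of the 211 hold a snoRNA gene or a gene of the related scaRNA class on their own strand. Those 21 include Rab26os, which is outside the list, and they ran from -0.71 to 0.64 and from -0.91 to 0.95. Of the 21, 19% and 33.3% were called in the 2 comparisons. Over all genes, 17.7% rose and 15.9% fell with tunicamycin, and 18.7% were higher and 19.6% lower in CKO Tu. Of the 15 listed hosts, 13.3% were called with tunicamycin, below the 33.6% of all genes. Between CKO Tu and WT Tu 33.3% were called, against 38.3% of all genes. Snhg1, host of 8 snoRNA genes, stood at 33.4, 37.3 and 35.9 FPKM with DMSO and 64.2, 46.2 and 48.9 in WT Tu (0.55 ± 0.11, adjusted p = 0.0052), then at 41.5 to 43.6 in CKO Tu. Slc3a2, the amino acid transporter subunit that starts 106 bases from it on the other strand, was not called with tunicamycin (0.10). Snhg5, host of Snord50a and Snord50b, rose at each step, from 19.4, 16.9 and 18.5 FPKM to 26.8, 25.8 and 25.3 and then to 33, 31.2 and 31.3, with no overlap between any groups (0.49 ± 0.06, adjusted p = 3.9e-04, and 0.28 ± 0.06, adjusted p = 0.006).

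Snhg15 was higher in CKO Tu by 0.48 ± 0.07 (12.9 to 15 FPKM in WT Tu, 19.1 to 21.6 in CKO Tu, adjusted p = 0.001). Epb41l4aos was higher by 0.29, a call lost without CKO Tu replicate 2 (adjusted p = 0.095) or 3 (0.074). Snhg12 was lower by 0.23, lost without WT Tu replicate 2 (0.075) or CKO Tu replicate 1 (0.091). Snhg6 was lower by 0.42, lost without any 1 CKO Tu library (0.053 to 0.082), and without the WT Tu library that stood highest the difference was -0.26. The remaining listed hosts were called in neither comparison. Gas5, with 10 snoRNA genes, stood at 47.5, 43.2 and 37.5 FPKM on average, Zfas1 at 39, 36.7 and 39.9 and 1110038B12Rik at 62.5, 64.8 and 64.7. Of 2410006H16Rik the CKO Tu libraries (289 to 296 FPKM) lay above those of WT Tu (187 to 264), with a difference of 0.34 ± 0.12 (adjusted p = 0.050) that did not pass the threshold. Snhg8, Snhg17, Snhg20, Snhg4 and Dancr also showed no called difference.

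**Figure D5:**
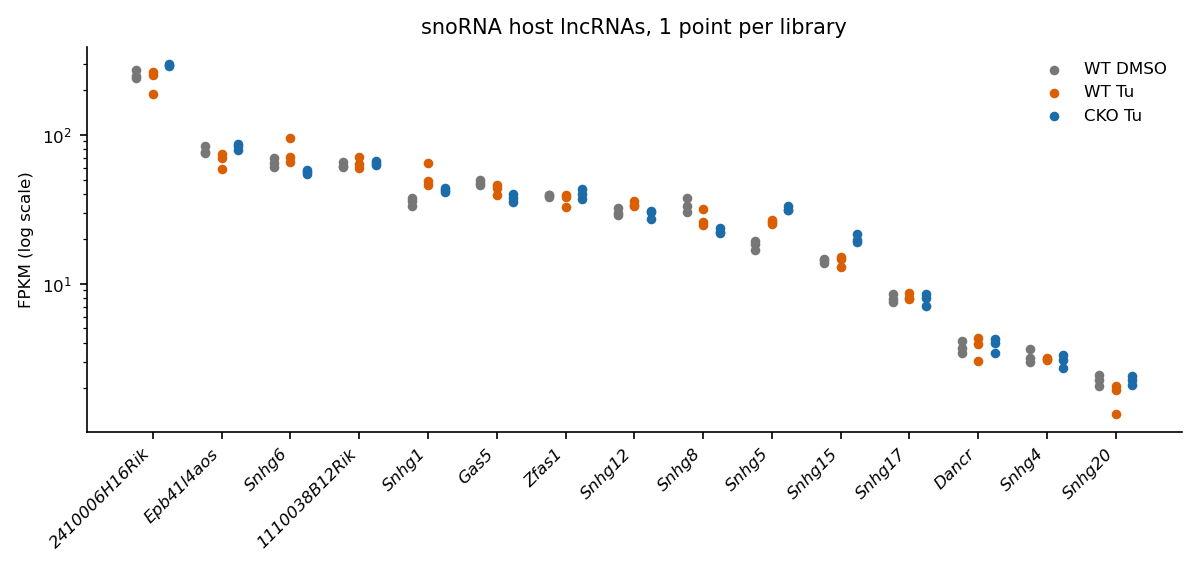
FPKM on a log axis of the 15 listed snoRNA host lncRNAs, 1 point per library, coloured by group and ordered by mean level. Snhg5 steps upward from WT DMSO to WT Tu to CKO Tu, and Snhg15 is raised in CKO Tu.

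The proteins that assemble with snoRNAs were measured beside their hosts. Of 12 snoRNP protein genes, 1 rose and 1 fell with tunicamycin (median -0.05), which is 16.7% called, against 33.6% of all genes. In CKO Tu 0 were higher and 5 lower than in WT Tu (median -0.14), against 18.7% of all genes higher and 19.6% lower. Nop56, a core box C/D protein, went from 138 to 103 to 70 FPKM (-0.41 ± 0.04, adjusted p = 1.5e-04, then -0.55 ± 0.04, adjusted p = 3.4e-05). Nop58, its partner, rose by 0.27 and was then lower by 0.33, and Dkc1, the pseudouridine synthase of box H/ACA particles, was lower in CKO Tu by 0.53 ± 0.08 (adjusted p = 7.9e-04).

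Of the nuclear-body RNAs, Malat1 and Neat1, neither was called with tunicamycin in WT or between CKO Tu and WT Tu. Malat1 stood at 173 to 188, 151 to 179 and 180 to 200 FPKM. Neat1, the scaffold of paraspeckles, stood at 5.72, 6.89 and 6.1 FPKM in WT DMSO, 4.59, 5.13 and 5.78 in tunicamycin-treated WT and 4.32, 5.36 and 4.8 in CKO Tu, and WT Tu overlapped both other groups (-0.23, adjusted p = 0.11, and -0.08, adjusted p = 0.56). Neat1 was called lower with tunicamycin under total-fragment scaling (-0.34, adjusted p = 0.027) and with voom on recovered fragments (-0.27, adjusted p = 0.049). CKO Tu lay below WT DMSO without overlap (-0.31 ± 0.10, adjusted p = 0.028). Of 9 paraspeckle protein genes, 3 were lower and 0 higher in CKO Tu than in WT Tu (Tardbp, -0.42, Cpsf6, -0.40, and Sfpq, -0.25), and the median difference was -0.02. In all, 33.3% of the list were called, against 38.3% of all genes.

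2900097C17Rik (Norad), which binds PUMILIO proteins in the cytoplasm, stood at 31.9, 30 and 28.4 FPKM in WT DMSO, 24.1, 24.4 and 25.6 in tunicamycin-treated WT and 34, 31.7 and 33.1 in CKO Tu. The WT Tu libraries lay below all others (-0.27 ± 0.06, adjusted p = 0.0068, then 0.40 ± 0.06, adjusted p = 8.8e-04). Tug1 was not called with tunicamycin and was lower in CKO Tu by 0.37 ± 0.10 (adjusted p = 0.018), a call lost without CKO Tu replicate 2 (0.058) or 3 (0.055). Of the imprinted lncRNAs listed, 0 reached the level for selection. Airn, which silences Igf2r from the paternal allele, stood at 1.43, 1.34 and 0.293 FPKM. H19 and Meg3 stayed under 0.1 FPKM. Ptgs2os and Ptgs2os2, antisense RNAs named for the COX-2 gene Ptgs2, were listed at 0 in all libraries, and Ptgs2 itself stood at 0.0943, 0.0887 and 0.0189 FPKM.

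Many lncRNAs are removed by RNA decay, and genes of that machinery were listed too. Of 14 nonsense-mediated decay factors, 1 rose and 3 fell with tunicamycin (median -0.13 over the list), which is 28.6% called, against 33.6% of all genes. The exon junction protein gene Magoh rose by 0.49 ± 0.13, and Smg5 (-0.37), Upf1 (-0.23) and Smg6 (-0.23) fell. In CKO Tu 4 were higher and 3 lower than in WT Tu, with a median of 0.09, which is 50% called, against 38.3% of all genes. Upf1, the central helicase, was higher by 0.31 ± 0.07 (adjusted p = 0.0087). Of 16 tested genes of the nuclear RNA exosome and its adaptors (17 in the table), 3 rose and 0 fell with tunicamycin. That is 18.8% called, against 33.6% of all genes. The 3 were the nuclease gene Dis3 (0.42 ± 0.08), Zfc3h1 (0.38) and Rbm7 (0.20). In CKO Tu 1 was higher and 9 were lower, with a median of -0.19, against 18.7% of all genes higher and 19.6% lower. Lower were, among others, Mphosph6 (-0.70 ± 0.18), the nuclease gene Exosc10 (-0.49 ± 0.05, 33.9 to 23.8 FPKM) and Exosc3 (-0.42 ± 0.08), and Rbm7, an adaptor subunit, was higher by 0.43 ± 0.06.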

How the data were processed

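RNA sequencing libraries of 9 hepatocyte samples were used, 3 in each of 3 groups. The authors aligned reads with HISAT2 2.2.1 to mm10 and counted with featureCounts 1.5.0-p3, per the submitters' processing notes. The annotation release and the strand setting are not given in the sources used here. The authors deposited FPKM values per gene. Within a tolerance of 0.001, 100% of the low values checked were whole multiples of what 1 fragment is worth, which gave the fragment numbers.

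The 11858 genes that reached 1 FPKM in 3 or more libraries were fitted as log2(FPKM + 1) over all 9 libraries with limma 3.58.1 (R 4.3.3, empirical Bayes with intensity trend), and p-values were adjusted by Benjamini-Hochberg over all of them, with calls below 0.05. Fold changes on this scale understate changes of low genes. The same steps were tested on simulated data with 200 changed genes. Neighbours and exon overlaps came from GENCODE vM21, which holds 99.77% of the gene IDs and gives the same coordinates for 98.26%. Promoters and miRNAs came from RefSeq (GRCm38.p6).

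The members and lists were chosen with earlier results of these data known. Named are listed lncRNAs, the 10 most abundant, those nearest the selection threshold, up to 10 in each direction per comparison among called lncRNAs whose groups did not overlap, up to 5 per direction called in opposite directions, up to 3 per partner list, and neighbours. The relation past a gene's end and 2 alternatives (without replicate 1 of both WT groups, and without the 7 lncRNAs with protein symbols) were added after seeing the data. The tunicamycin result of the paraspeckle protein list is not reported here.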

Additional observations from a re-analysis of the deposited data

How the results depend on the processing

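No named call changed sign under the alternatives run, but with total-fragment scaling the balance for tunicamycin in WT turned from 38 higher and 17 lower to 32 and 33. Counts are given as called, higher and lower. With a filter at FPKM of 5, 71 lncRNAs were tested, with 22, 14 and 8 for tunicamycin in WT, 32, 18 and 14 for CKO Tu against WT Tu, and 31, 20 and 11 for CKO Tu against WT DMSO. Selecting lncRNAs at FPKM of 5 gave 21, 14 and 7, then 30, 17 and 13, then 31, 20 and 11. Selecting at FPKM of 1 (414 lncRNAs) gave 83 called and 29 lower with tunicamycin, and 112 called and 70 higher between genotypes. The 111 that overlap no gene on the opposite strand gave 25, 17 and 8, then 41, 25 and 16, then 49, 30 and 19. These selections hold fewer or more lncRNAs by construction. With tunicamycin, 10 were lower without a filter on low values, and the cause of this and of the shift with total-fragment scaling was not tested. Leaving out 1 library at a time, or replicate 1 of both WT groups, gave 46 to 56 called (31 to 39 higher, 13 to 19 lower), 52 to 83 (31 to 44, 19 to 39) and 72 to 101 (46 to 61, 23 to 40) in the 3 comparisons.

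With a replicate block the counts were 56 (38 higher, 18 lower), 73 (41, 32) and 91 (57, 34). Deviations of same-numbered libraries correlated between -0.0967 and 0.0208, and those of differently numbered libraries between -0.0608 and 0.104. Same-numbered libraries were thus no more alike by this measure. With so few libraries per group, it cannot decide whether same-numbered libraries share an animal or batch. Gm26917, as given above, was low in same-numbered libraries of both WT groups. Of 71 named calls, 53 held without any single library and 18 did not. The 53 include calls whose difference the selection fixes in part, such as those of Gm15344 and Gm43305, so their holding is no support. At a median of 68 fragments per library, depth limits the scarcer lncRNAs: 86 had a median below 50.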
